A study of Mus musculus with 2 samples.

Results

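A group of 6 gene symbols was examined as less-known long non-coding RNAs (lncRNAs) of telomere isolates, namely B230314M03Rik, C330006A16Rik, Gm14636, 9430008C03Rik, B230319C09Rik and 4930520O04Rik. They are 6 of the 24117 gene symbols in the data and hold 15 of the 48876 listed Ensembl transcripts. Every transcript carrying one of the 6 symbols was taken, and its reads were also summed per gene. The symbols were selected on the ratio of their reads between the same 2 libraries, so these ratios describe the selected genes and are no test of them.

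The data are from enChIP-RNA-Seq, in which a tagged DNA-binding protein is expressed in cells, the chromatin is crosslinked with formaldehyde and sheared, and the RNA that comes down with the protein on an anti-FLAG M2 antibody is sequenced. Both libraries were from Ba/F3, an IL-3-dependent mouse hematopoietic line labelled as strain C3H. One line expressed 3xFN-Tel-TAL, a TAL protein with a 3xFLAG tag and a nuclear localization signal that reads an array of TTAGGG, the telomere repeat. The other expressed 3xFNLDD, a 3xFLAG-tagged LexA protein used as the negative control. Whether each line was 1 clone or a mixed population is not given in the sources used here. No library of total cellular RNA was analysed here, so an RNA that was more abundant in the cells and an RNA that was co-purified more often cannot be told apart.

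There was 1 library per protein, with 7206183 reads counted for 3xFNLDD and 9774844 for 3xFN-Tel-TAL. Levels are given as RPM, the reads scaled to the library total, and 3 reads correspond to 0.416 RPM in the 3xFNLDD library and 0.307 RPM in the 3xFN-Tel-TAL library. Each log2 ratio divides the RPM of 3xFN-Tel-TAL by that of 3xFNLDD and is followed by an exact 95% Clopper-Pearson interval. Such an interval holds counting error alone, since reads of a PCR-amplified library are not independent molecules, and it compares a pair of libraries rather than conditions. There were 11 transcripts that each held over 1% of the reads in at least 1 library, in sum 84.8% of the 3xFNLDD and 81.1% of the 3xFN-Tel-TAL reads. A trimmed-mean scaling (TMM of edgeR) moved all log2 ratios by -0.37, which leaves differences between genes as they are. Of 12 hematopoietic marker genes 11 were in the files and 10 had at least 20 reads, with Kit at 2 reads in each library, and none of the 8 listed markers of other cell types reached 20 reads.

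Long non-coding RNAs are transcripts without a long open reading frame, many of which are capped, spliced and polyadenylated like mRNAs. Some stay in the nucleus and bind chromatin or nuclear bodies, others serve as hosts from whose introns small nucleolar RNAs (snoRNAs) are cut, and many lie antisense to a protein-coding gene or share a promoter region with one. The telomere itself gives rise to lncRNAs that contain UUAGGG repeats. Most genes named Rik or Gm are known from cDNA collections or gene prediction, without an assigned function.

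The annotations do not describe all 6 genes as plain lncRNAs, and the name lncRNA genes is used here for the group only. RefSeq (GRCm38.p6) lists 9430008C03Rik as Snhg17, a snoRNA host gene, and B230314M03Rik as Lrp8os2, an opposite-strand transcript of Lrp8, the apolipoprotein E receptor 2 gene. It lists C330006A16Rik as Tmem250-ps with the type protein coding, whereas GENCODE M1 calls the listed transcript a lincRNA. The main transcript of B230314M03Rik is protein coding in GENCODE M1, with 492 coding nt, and belongs to another gene identifier (ENSMUSG00000073779) than its second transcript (ENSMUSG00000085153). Gm14636, B230319C09Rik and 4930520O04Rik are non-coding in both.

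Windows of 300 bases around RefSeq transcription starts (250 bases before and 50 after, GRCm38.p6) give the sequence at the starts that RefSeq assigns to these genes. These need not be the starts of the counted transcripts, since Gm14636 spans 81380 nt in RefSeq and 10261 nt in GENCODE M1, and 9430008C03Rik spans 7823 and 6274 nt. 3 of them are printed, each from 5′ to 3′ on the strand of the lncRNA. The B230319C09Rik window, chr6:83441505-83441804 (+), is shown because the gene starts back to back with Tet3, and its capitals mark the 176 bases that also lie in the window of Tet3. The B230314M03Rik window, chr4:107822973-107823272 (−), is shown for the single telomeric hexamer among the members' windows, which is in capitals and starts at base 34. It is the start of the transcript with 0 and 5 reads, and ENSMUST00000097930, which held most reads of B230314M03Rik, begins far downstream of it. The 9430008C03Rik window, chr2:158361473-158361772 (−), belongs to the member with the most reads, and its capitals mark the 50 bases from the start onward.
B230319C09Rik: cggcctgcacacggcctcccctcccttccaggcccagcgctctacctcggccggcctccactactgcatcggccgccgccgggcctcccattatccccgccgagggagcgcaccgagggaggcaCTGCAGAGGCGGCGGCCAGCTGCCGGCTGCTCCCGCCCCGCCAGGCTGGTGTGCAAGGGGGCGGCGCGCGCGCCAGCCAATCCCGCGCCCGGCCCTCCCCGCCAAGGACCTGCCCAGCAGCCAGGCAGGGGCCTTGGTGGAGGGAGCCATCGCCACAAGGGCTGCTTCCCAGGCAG
B230314M03Rik: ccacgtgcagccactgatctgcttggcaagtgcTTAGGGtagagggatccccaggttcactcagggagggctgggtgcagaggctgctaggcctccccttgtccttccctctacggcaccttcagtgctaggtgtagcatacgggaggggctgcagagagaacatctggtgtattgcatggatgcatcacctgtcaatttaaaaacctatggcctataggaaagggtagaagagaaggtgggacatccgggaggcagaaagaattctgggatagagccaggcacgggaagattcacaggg
9430008C03Rik: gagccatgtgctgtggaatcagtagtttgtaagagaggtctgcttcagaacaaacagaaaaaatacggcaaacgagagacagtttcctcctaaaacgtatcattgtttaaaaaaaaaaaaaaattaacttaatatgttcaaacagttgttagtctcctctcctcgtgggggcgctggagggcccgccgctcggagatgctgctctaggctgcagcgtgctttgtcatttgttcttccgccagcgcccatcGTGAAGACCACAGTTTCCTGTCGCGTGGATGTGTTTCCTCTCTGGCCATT

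All 6 genes matched RefSeq windows, 8 in number. The hexamer TTAGGG, searched on both strands as TTAGGG or CCCTAA, was in 1 of these 8 windows and in 10.6% of the 32851 windows of all genes. The B230319C09Rik window had 28 CpG dinucleotides and a GC content of 75.7%, against a median of 7 CpG and 52.7% over all windows. The B230314M03Rik window had 5 CpG and 55% GC, and the 9430008C03Rik window 14 CpG and 47% GC. Of the windows not printed, those of 4930520O04Rik had 30 CpG with 66% GC and 6 CpG with 49.3% GC, that of Gm14636 had 20 CpG with 67.3% GC, that of C330006A16Rik 14 CpG with 52.3% GC, and the second of 9430008C03Rik 15 CpG with 47.3% GC. All windows had more CpG than the median of 7 except that of B230314M03Rik and the second of 4930520O04Rik. The highest counts were in windows of 4930520O04Rik, B230319C09Rik and Gm14636.

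All 6 genes had more RPM in the 3xFN-Tel-TAL library. B230314M03Rik had 25 reads in the 3xFNLDD library and 106 in the 3xFN-Tel-TAL library, or 3.47 and 10.8 RPM, a log2 ratio of 1.64 (1.005 to 2.34). C330006A16Rik had 58 and 223 reads, or 8.05 and 22.8 RPM, a log2 ratio of 1.50 (1.08 to 1.95). Gm14636 had 27 and 103 reads, or 3.75 and 10.5 RPM, a log2 ratio of 1.49 (0.87 to 2.16). The counting intervals of these 3 ratios overlapped, so their order was not resolved at this depth.

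The other 3 genes had lower ratios. 9430008C03Rik had 122 and 378 reads in the same order, or 16.9 and 38.7 RPM, a log2 ratio of 1.19 (0.89 to 1.50). B230319C09Rik had 38 and 86 reads, or 5.27 and 8.80 RPM, a log2 ratio of 0.74 (0.17 to 1.33). 4930520O04Rik had 108 and 196 reads, or 15.0 and 20.1 RPM, a log2 ratio of 0.42 (0.074 to 0.77). The interval of 4930520O04Rik lay below those of B230314M03Rik, C330006A16Rik, Gm14636 and 9430008C03Rik, and it overlapped that of B230319C09Rik. Summed over the 6 genes, the libraries held 378 and 1092 reads, or 52.5 and 111.7 RPM.

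**Figure D1:**
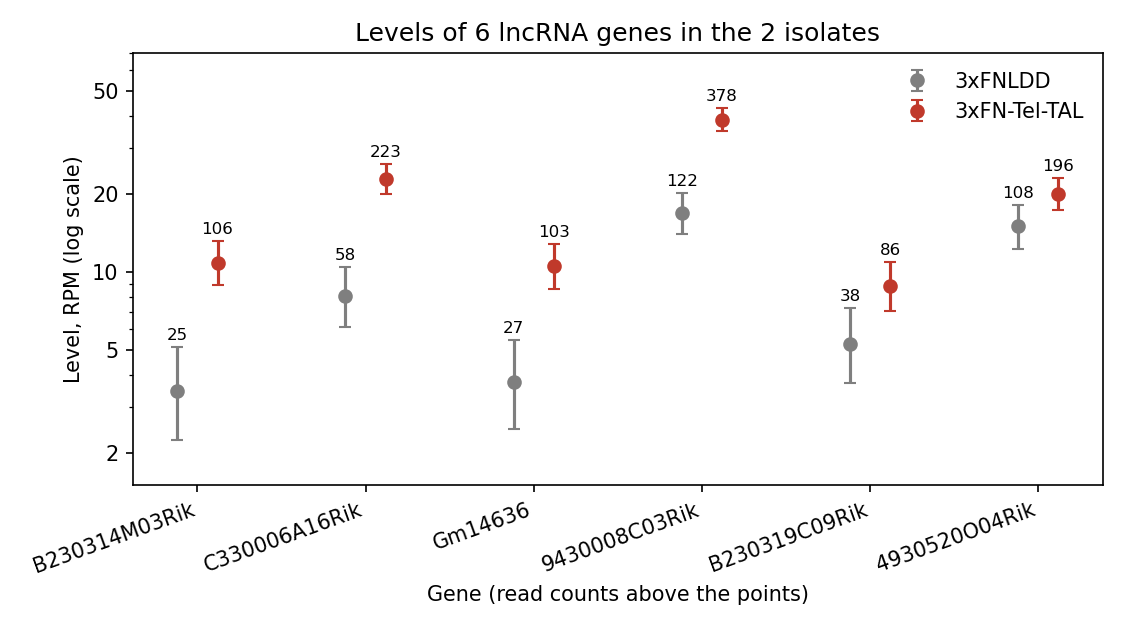
Levels of the 6 lncRNA genes in RPM on a log axis, with exact 95% Poisson counting intervals as bars and read counts above the points, for 1 3xFNLDD library (grey) and 1 3xFN-Tel-TAL library (red). The bars of both libraries are apart for B230314M03Rik, C330006A16Rik, Gm14636 and 9430008C03Rik, and they overlap for B230319C09Rik and 4930520O04Rik.

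The threshold set on the ratio was 1.4, a log2 ratio of 0.49. Of the 6 genes, 5 were above it, 4930520O04Rik being just outside at a ratio of 1.34. The same held for 41.1% of the 12517 gene symbols with at least 20 reads over both libraries, and since this ratio chose the 6 genes nothing is read from the difference. The interval lay wholly above 1.4 for 4 genes (B230314M03Rik, C330006A16Rik, Gm14636 and 9430008C03Rik), and for 10.1% of all gene symbols. With TMM scaling, the same 4 genes were above 1.4, with log2 ratios of 1.28, 1.13, 1.12 and 0.82, while B230319C09Rik was at 0.37 and 4930520O04Rik at 0.051. The median log2 ratio was 1.34 over the 6 genes and 0.37 over all 12517 gene symbols.

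Against the 5933 gene symbols with at least 100 reads, whose median log2 ratio was 0.41, B230314M03Rik ranked 107, C330006A16Rik 160, Gm14636 171 and 9430008C03Rik 419. B230319C09Rik ranked 1387. 4930520O04Rik ranked 2912, at percentile 50.9, and so had the ratio of a typical gene in these libraries. For every member, other genes had nearly the same level and ratio. Mrps5, which encodes a mitochondrial ribosomal protein, had the same 27 and 103 reads as Gm14636, and Onecut3, a homeobox gene, had the same 38 and 86 reads as B230319C09Rik. The genes nearest to the others were Atp11b (26 and 111 reads) for B230314M03Rik, N4bp1 (60 and 232) for C330006A16Rik, Tnk2 (124 and 369) for 9430008C03Rik and Gm16286 (108 and 197) for 4930520O04Rik. Mrps5, Onecut3 and Tnk2 are protein-coding genes nearest to members typed as non-coding, so such levels and ratios were not limited to lncRNAs. Atp11b and N4bp1 are protein coding too. The members they are nearest to are typed so themselves, B230314M03Rik by GENCODE M1 (main transcript) and C330006A16Rik by RefSeq.

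**Figure D2:**
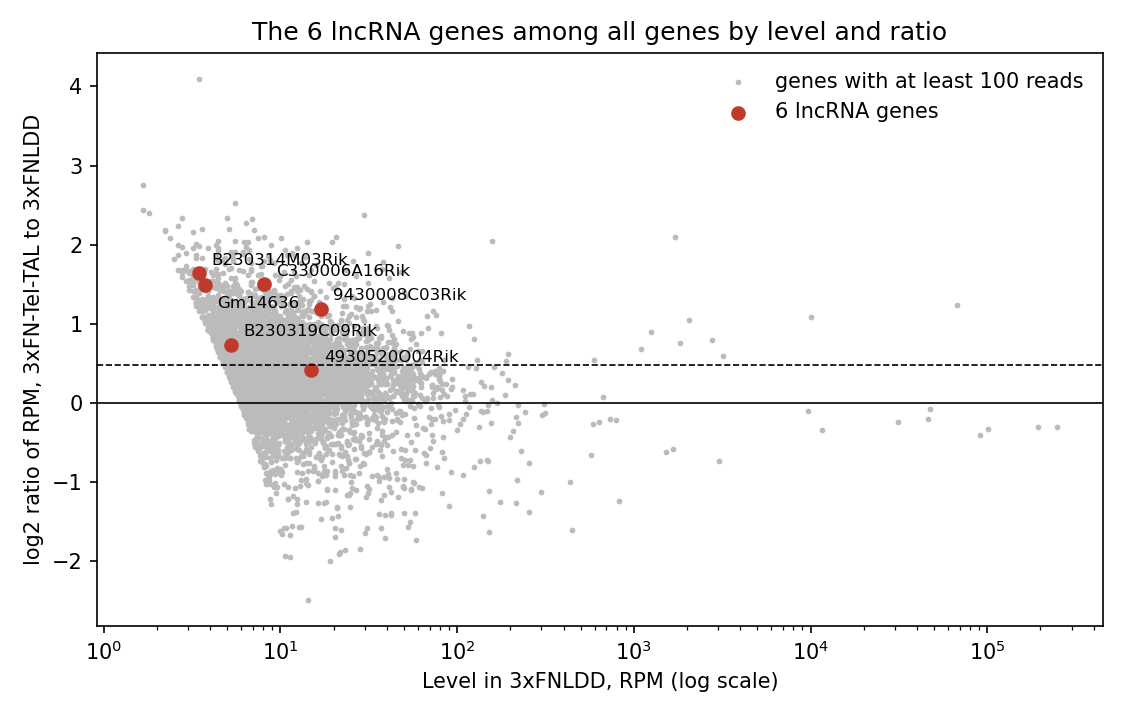
Log2 ratio of RPM against the level in 3xFNLDD (RPM, log axis) for the 5933 gene symbols with at least 100 reads over both libraries (grey) and the 6 lncRNA genes (red), with a dashed line at a ratio of 1.4. The sloping lower left edge is set by the minimum of 100 reads, and 4930520O04Rik sits in the middle of the cloud while B230314M03Rik, C330006A16Rik and Gm14636 sit near its upper left side.

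The transcripts of a gene share sequence and are not replicates of each other, and how the authors divided shared reads is not given in the sources used here. Of the 15 listed transcripts, 11 had at least 20 reads over both libraries and 4 did not. The ratio was above 1.4 for 8 of these 11, and for 44.2% of all 16468 transcripts with as many reads. Just inside the threshold was ENSMUST00000131898 of 4930520O04Rik at a log2 ratio of 0.50, and just outside it were ENSMUST00000063376 of B230319C09Rik at 0.45 and ENSMUST00000133449 of 9430008C03Rik at 0.43.

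In 9430008C03Rik, the snoRNA host gene, most reads were on ENSMUST00000149667, which is annotated as a retained intron. It had 88 reads in the control and 305 with 3xFN-Tel-TAL, for a log2 ratio of 1.35 (1.01 to 1.71). The spliced transcripts ENSMUST00000133449, with 18 and 33 reads, and ENSMUST00000141809, with 13 and 35 reads, had log2 ratios of 0.43 (-0.44 to 1.35) and 0.99 (0.035 to 2.03). The retained-intron transcript held 72.1% of the gene's reads in 3xFNLDD (exact binomial 95% interval 63.3 to 79.9) and 80.7% in 3xFN-Tel-TAL (76.3 to 84.5), and the intervals overlap. It is 3728 nt long, against 933 nt for ENSMUST00000133449 and 1553 nt for ENSMUST00000141809. Per kilobase of transcript, it had 3.28 RPM in 3xFNLDD and 8.37 in 3xFN-Tel-TAL. In the same order, ENSMUST00000133449 had 2.68 and 3.62, and ENSMUST00000141809 had 1.16 and 2.31. The remaining transcripts, ENSMUST00000138592 (1 and 2 reads), ENSMUST00000151331 (2 and 1) and ENSMUST00000152125 (0 and 2), were at or below 3 reads in either library.

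In Gm14636, ENSMUST00000143129 had 11 and 59 reads, a log2 ratio of 1.98 (1.04 to 3.06), and ENSMUST00000150801 had 16 and 44 reads, a log2 ratio of 1.02 (0.17 to 1.94). The spliced ENSMUST00000143129 held 40.7% of the reads of Gm14636 in 3xFNLDD (22.4 to 61.2) and 57.3% in 3xFN-Tel-TAL (47.2 to 67.0). A change in the use of the 2 transcripts was not resolved at this depth.

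In B230319C09Rik, the transcripts were on different sides of the threshold. ENSMUST00000063376, with 34 and 63 reads, was at a log2 ratio of 0.45 (-0.17 to 1.10). ENSMUST00000170986, with 4 and 23 reads, was at a log2 ratio of 2.08 (0.53 to 4.08), and its share of the gene's reads was 10.5% (2.94 to 24.8) in 3xFNLDD and 26.7% (17.8 to 37.4) in 3xFN-Tel-TAL. The ratio above 1.4 of the gene was thus not shared by its main transcript, though the intervals of the 2 transcripts overlap.

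In 4930520O04Rik, ENSMUST00000131898 had 93 and 178 reads, a log2 ratio of 0.50 (0.13 to 0.87), whereas ENSMUST00000124664 had 15 and 18 reads, a log2 ratio of -0.18 (-1.25 to 0.92). The summed gene was below 1.4 and its main transcript was above it. B230314M03Rik was counted almost wholly on ENSMUST00000097930, with 25 and 101 reads and a log2 ratio of 1.57 (0.93 to 2.27), while ENSMUST00000150323 had 0 and 5 reads. C330006A16Rik has a single listed transcript, ENSMUST00000133808.

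**Figure D3:**
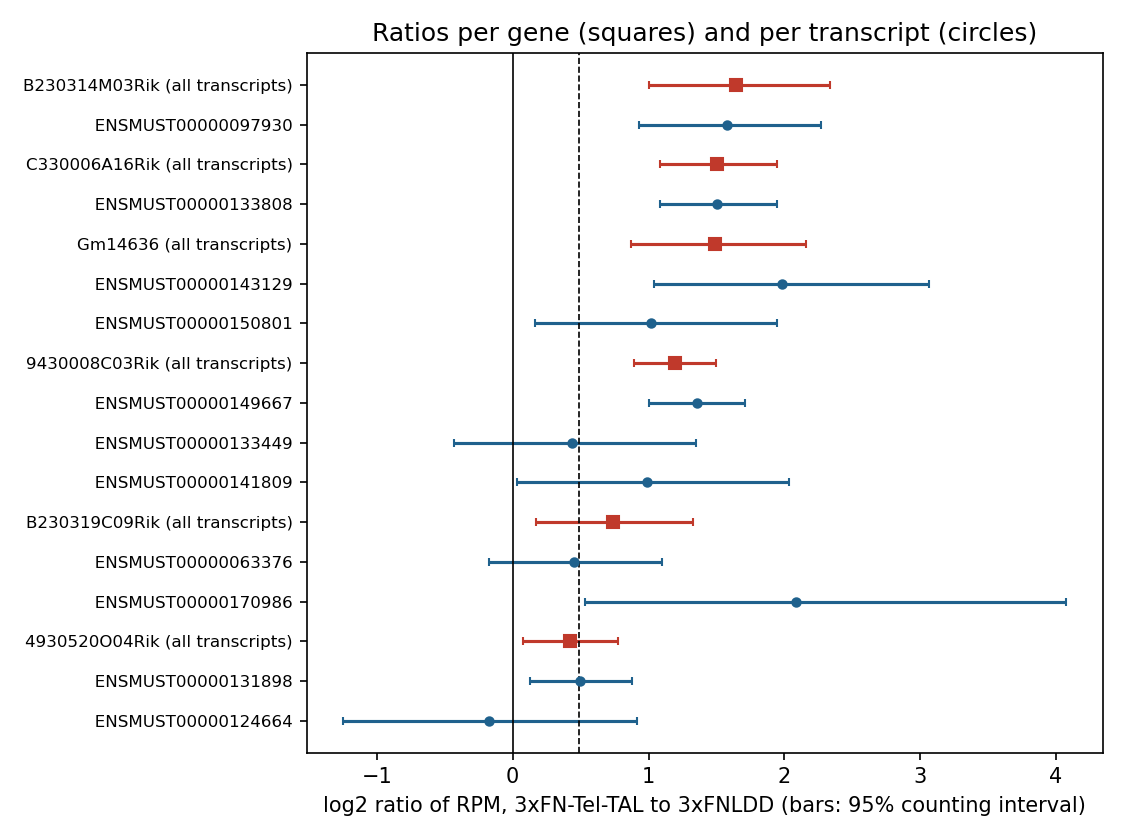
Log2 ratios of RPM for each gene (red squares) and each of its transcripts with at least 20 reads over both libraries (blue circles), with exact 95% counting intervals and a dashed line at a ratio of 1.4. The interval of ENSMUST00000170986 of B230319C09Rik, from 0.53 to 4.08, is the widest of those drawn. Those of ENSMUST00000124664 of 4930520O04Rik, ENSMUST00000133449 of 9430008C03Rik and ENSMUST00000063376 of B230319C09Rik span 0.

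Gene models and positions were taken from GENCODE M1 on NCBIM37, matched by Ensembl transcript identifier, because the labels name GRCm38 and mm10 but not the annotation release behind the counts, and the RefSeq tables of GRCm38.p6 served here for names, types and promoter windows only. On NCBIM37, C330006A16Rik is on chromosome 2, reverse strand, at 25992334 to 25996041, and 9430008C03Rik on the same strand of that chromosome at 158181043 to 158187316. Gm14636 is on chromosome X, reverse strand, at 18734107 to 18744367, and B230314M03Rik on chromosome 4, reverse strand, at 107478638 to 107495615. B230319C09Rik is on chromosome 6, forward strand, at 83391749 to 83398316, and 4930520O04Rik on chromosome 9, forward strand, at 114277421 to 114286347.

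None of the genes lies next to a chromosome end. The nearer chromosome end was between 9.79 Mb (4930520O04Rik) and 66.1 Mb (B230319C09Rik) away, and its median distance over 37273 annotated genes was 33.1 Mb. The gene closest to an end, 4930520O04Rik, had the lowest log2 ratio of the 6 (0.42), and a relation of distance to ratio was not tested. Telomeric hexamers on either strand occurred in 6 of the 11 spliced transcripts with enough reads (54.5%) and in 51.3% of the 15527 annotated transcripts with as many reads. Per kilobase, the 11 transcripts held 0.508 hexamers, compared with 0.284 over all annotated transcripts and 0.338 over the non-coding ones, and 4 of the members' hexamers were in ENSMUST00000131898 of 4930520O04Rik and 3 in ENSMUST00000150801 of Gm14636. Tandem hexamers were in 0 of the 11 and in 0.0708% of all. C330006A16Rik, both transcripts of B230319C09Rik, the main transcript of B230314M03Rik and ENSMUST00000143129 of Gm14636 held no hexamer.

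The 11 transcripts with enough reads had a median of 3 exons, the same as annotated non-coding transcripts, and much of their length lay in 1 long exon. The longest exon took a median of 81.8% of their length, compared with 70.1% of 3596 annotated non-coding transcripts and 58.3% of all. ENSMUST00000097930 of B230314M03Rik has 2 exons and 2991 nt, of which 2805 are in the longest exon, and ENSMUST00000133808 of C330006A16Rik has 2 exons and 2483 nt, of which 2100 are in the longest. The retained-intron transcript of 9430008C03Rik has 4 exons and 3728 nt, with 3402 nt in the longest exon and 2808 nt that are in no other listed transcript of the gene. In Gm14636, ENSMUST00000150801 is a transcript of 5060 nt with an exon of 4889 nt, and ENSMUST00000143129 has 3 exons and 2279 nt.

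Per kilobase of transcript, the levels of the main transcripts were closer to each other than their RPM. In the 3xFN-Tel-TAL library, C330006A16Rik had 9.19 RPM per kb, the retained-intron transcript of 9430008C03Rik 8.37, ENSMUST00000131898 of 4930520O04Rik 6.85, ENSMUST00000063376 of B230319C09Rik 3.82, ENSMUST00000097930 of B230314M03Rik 3.45 and ENSMUST00000143129 of Gm14636 2.65. In the 3xFNLDD library, the highest of these levels was that of 4930520O04Rik at 4.85 RPM per kb, followed by 9430008C03Rik at 3.28 and C330006A16Rik at 3.24.

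**Figure D4:**
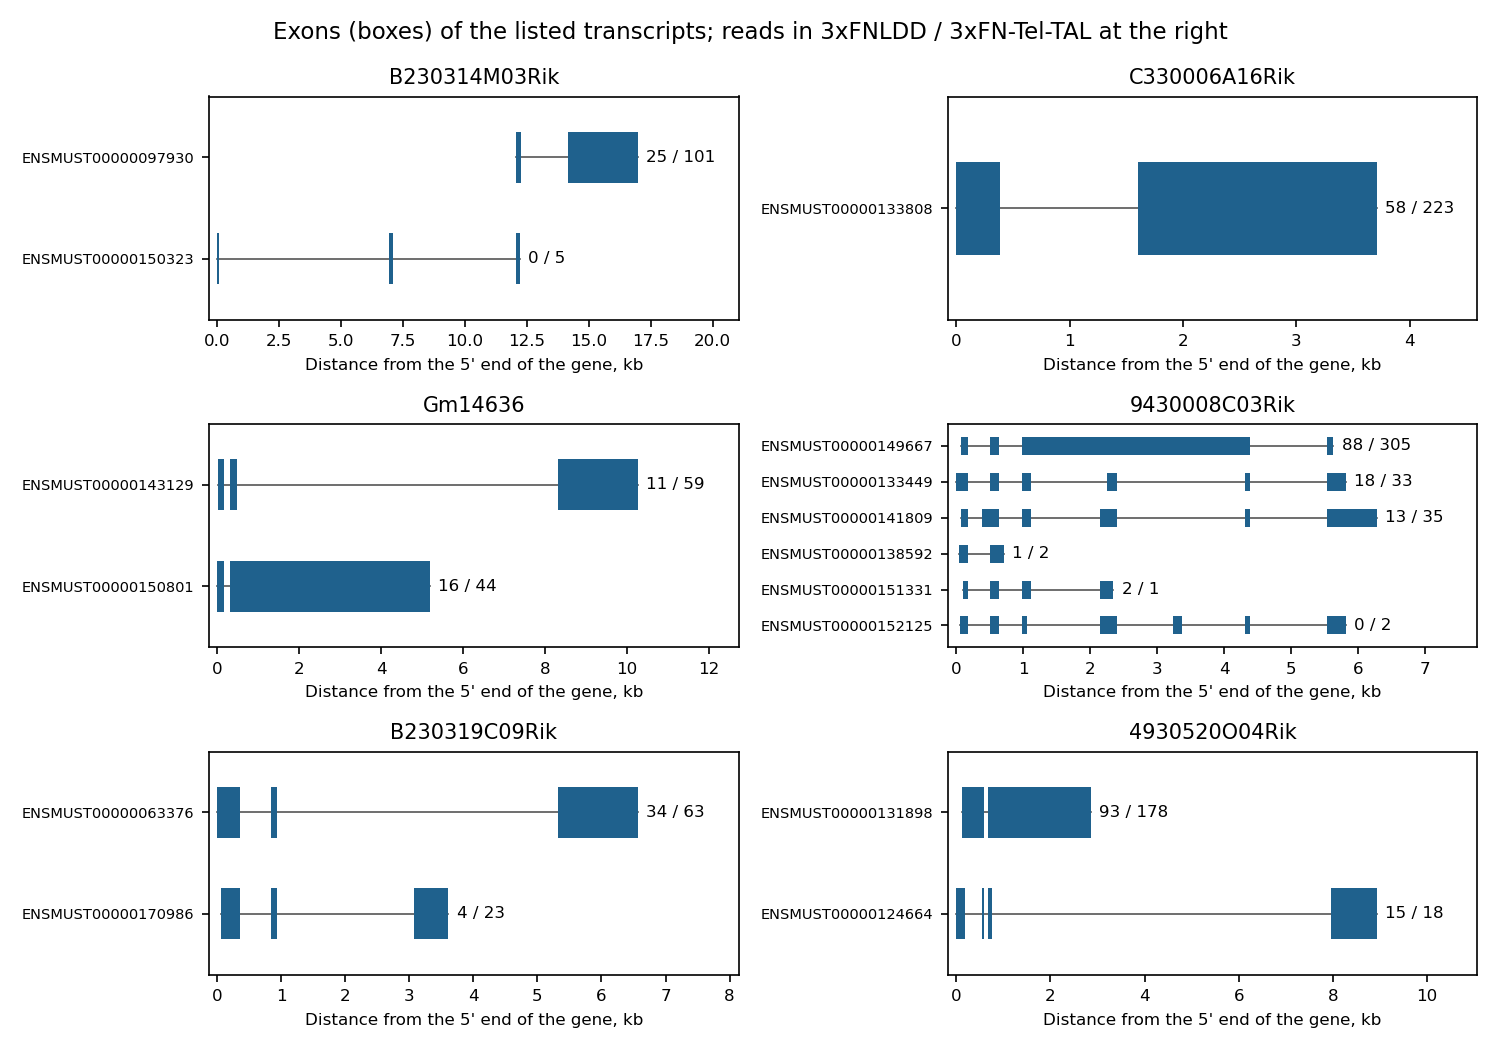
Exons (boxes) and introns (lines) of the 15 listed transcripts in kb from the 5′ end of each gene (GENCODE M1), with reads in 3xFNLDD and 3xFN-Tel-TAL at the right. The transcript with the most reads of 9430008C03Rik, with 88 and 305 reads, is the one whose long exon of 3402 nt spans introns of the other transcripts.

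The genes at the same loci were read from the same libraries. Since the members were selected on their ratios, a gap between a member and a neighbour at any of the loci below is no finding. The library kit does not mark strand, so reads from overlapping exons of opposite strands cannot be assigned to one gene. The same holds for reads of unspliced RNA that cross exons of a gene on the other strand. B230314M03Rik lies inside Lrp8 on the opposite strand, with no overlap of exons, and Lrp8 had 244 and 298 reads, a log2 ratio of -0.15 (-0.40 to 0.099). The exons of B230314M03Rik thus lie in introns of Lrp8, and the part of unspliced Lrp8 RNA in its count was not tested. The interval of B230314M03Rik (1.005 to 2.34) lay wholly above that of the surrounding gene, but B230314M03Rik was selected on this ratio, so nothing is read from the gap. Its other neighbours, Gm12908 (5 and 4 reads) and 4930430J20Rik (3 and 5 reads), were too shallow to compare.

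C330006A16Rik shares 368 nt of exon with 1810012K08Rik on the opposite strand, which had 4 and 18 reads, a log2 ratio of 1.73 (0.13 to 3.75). Reads in the shared stretch are uncertain for both genes. Nacc2, a transcriptional repressor gene on the same strand and 13593 nt away, had 44 and 71 reads, a log2 ratio of 0.25 (-0.31 to 0.83), below the interval of C330006A16Rik (1.08 to 1.95).

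The 9430008C03Rik gene contains 3 annotated copies of the H/ACA snoRNA SNORA71, of which 2 were listed in the files. Gm23925, a copy of 132 nt inside the long exon of the retained-intron transcript, had 14 and 16 reads, a log2 ratio of -0.25 (-1.38 to 0.90). Gm24411, a copy in an intron, had 12 and 24 reads, a log2 ratio of 0.56 (-0.50 to 1.69). The copies are near relatives, so reads could have been split among them, and the part of snoRNA reads in the count of the host transcript was not tested. The nearest genes on either side were Lbp, encoding lipopolysaccharide-binding protein (12 and 23 reads, 0.50), and Snhg11 (288 and 363 reads, -0.11, interval -0.33 to 0.12), and the interval of Snhg11 lay below that of 9430008C03Rik (0.89 to 1.50).

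B230319C09Rik starts 76 nt from Tet3, which encodes a 5-methylcytosine dioxygenase and is read in the other direction. Tet3 had 350 and 629 reads, a log2 ratio of 0.41 (0.22 to 0.60), inside the interval of B230319C09Rik (0.17 to 1.33), so no difference between the 2 genes of this shared start region was resolved. Dguok, on the far side, had 10 and 14 reads. 4930520O04Rik overlaps the protein-coding Crtap without shared exons, and Crtap had 17 and 20 reads, a log2 ratio of -0.21 (-1.21 to 0.82). The last exon of ENSMUST00000124664 lies within the span of Crtap, whereas the main transcript ENSMUST00000131898 ends outside it. Near it, Glb1 had 8 and 20 reads (0.88, interval -0.36 to 2.27) and Bcl2a1c had 4 and 0. The nearest annotated genes of Gm14636 are Mir222 and a U6 gene, neither of which was listed in the files.

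**Figure D5:**
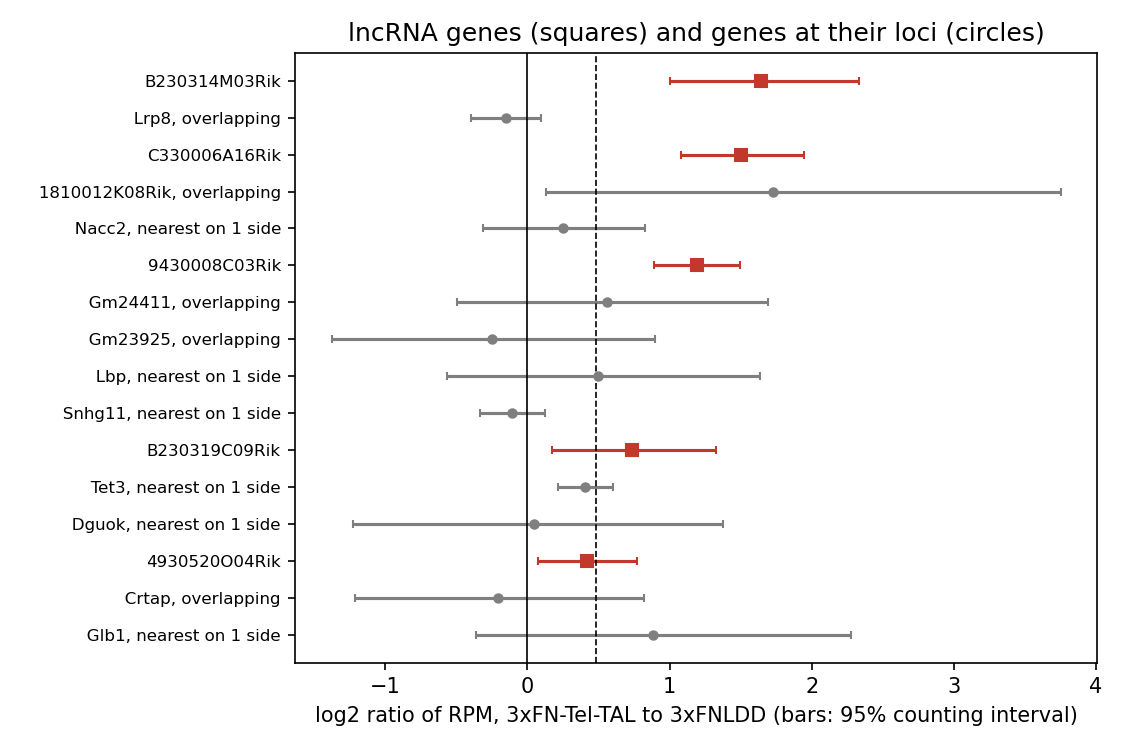
Log2 ratios of RPM of the lncRNA genes with listed neighbours (red squares) and of the overlapping or nearest genes with at least 20 reads over both libraries (grey circles), with exact 95% counting intervals, a solid line at 0 and a dashed line at a ratio of 1.4. Lrp8, Nacc2 and Snhg11 lie below their lncRNA neighbours with intervals apart, whereas Tet3 and 1810012K08Rik overlap theirs. The lncRNA genes were selected on these ratios, so the gaps are no finding.

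Well-known lncRNAs gave a scale for these values. Of 32 such genes 23 were in the files and 14 had at least 100 reads. Their median log2 ratio was 0.52, 8 were above a ratio of 1.4 and 1 was below its inverse, whereas with TMM scaling the median was 0.15. The highest was Snhg5, like 9430008C03Rik a snoRNA host gene, with 43 and 135 reads and a log2 ratio of 1.21 (0.71 to 1.74). Neat1, the lncRNA of paraspeckles, was at 0.89 (0.75 to 1.03) with 585 and 1468 reads, and Gas5, another snoRNA host, was at 0.85 (0.53 to 1.17). The interval of C330006A16Rik (1.08 to 1.95) lay above that of Neat1 and that of 4930520O04Rik (0.074 to 0.77) overlapped it, as did those of B230314M03Rik, Gm14636, 9430008C03Rik and B230319C09Rik. The intervals of 9430008C03Rik, Snhg5 and Gas5 also overlapped. As the members were selected on this ratio, nothing is read from where their intervals lie beside those of well-known lncRNAs.

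The other well-known lncRNAs above a ratio of 1.4 were Dleu2 (0.61), Airn (0.57), Pvt1 (0.57), Malat1 (0.55) and Ftx (0.49), and Jpx (0.41), Rian (0.35), Tug1 (0.20), Snhg12 (0.15), Dancr (-0.21) and Meg3 (-0.78) were below it. With TMM scaling the log2 ratios of Rian, Tug1 and Snhg12 turned negative, at -0.022, -0.17 and -0.22. 4930520O04Rik (0.42) was thus at the level of Jpx, while B230314M03Rik, C330006A16Rik and Gm14636 were above all 14 by point ratio. These are the values on which the genes were selected, so this order is no finding. Among all gene symbols with at least 100 reads, 42.8% were above 1.4 and the median was 0.41. Genes with the same kind of symbol as the members had lower medians than that. Of 243 other Rik symbols with at least 100 reads, 80 (32.9%) were above 1.4 and their median was 0.30, or -0.068 with TMM scaling. Of 397 other symbols of Gm and digits, 90 (22.7%) were above 1.4 and their median was 0.096, or -0.27 with TMM scaling.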

How the data were processed

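RNA from anti-FLAG isolates of the 3xFNLDD and the 3xFN-Tel-TAL line of Ba/F3 was analysed, with 1 library for each. The authors deposited raw read counts per Ensembl transcript and the same values as RPM (counts scaled to the library's sum). RPM recomputed from the counts differed from the deposited RPM by less than the last digit printed. The submitters' processing notes name cutadapt, GRCm38 and mm10, while the aligner, the counter, the use of strand and the handling of reads with several matches are not given in the sources used here. The kit, TruSeq RNA v2, does not mark strand.

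Counts were summed per gene symbol, with a minimum of 20 reads over both libraries, or 100 for ranks and for named genes of the lists. Log2 ratios had no pseudocount. Exact intervals were computed in Python 3.11.15 with scipy 1.17.1 and pandas 2.3.3. They were checked on simulated Poisson counts only, which lack any further spread of a PCR-amplified library. TMM factors came from edgeR 4.0.16 and median-of-ratios factors from DESeq2 1.42.0 in R 4.3.3, and they served for scaling only. No test was run, since there are no replicates. Gene models came from GENCODE M1 (NCBIM37), which holds 45887 of the 48876 transcripts, and promoter windows from RefSeq (GRCm38.p6), with no coordinates converted between them. The named genes were the 6 lncRNA genes, well-known lncRNAs with at least 100 reads, the listed genes that overlap or flank each of the 6, and the gene nearest to each in log2 level and log2 ratio among those with at least 100 reads. The 6 genes, the lists and the alternatives were chosen with earlier results of these data known.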

Additional observations from a re-analysis of the deposited data

How the results depend on the processing

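No paired analysis was possible because each condition has a single library, which also precludes leaving one out. For the 6 lncRNA genes, 30 alternative log2 ratios were computed (3 other scalings, 0.5 reads added, or the transcript with the most reads). All 30 kept their direction, and 27 stayed within the interval. Some of the 30 could hardly differ, since C330006A16Rik has 1 listed transcript and 0.5 reads is little beside counts of 25 or more. The other 3 were 9430008C03Rik at 0.82 with TMM scaling and at 0.88 with totals without transcripts above 1%, and 4930520O04Rik at 0.051 with TMM scaling. The number of the 6 genes above 1.4 was 4 with each of these scalings and 5 with the transcript with the most reads. It was 4 with the lower bound of the interval, which 10.1% of all gene symbols passed. It stayed 5 with no filter or at least 100 reads, which could not change it, since every member had over 100 reads. The share of all gene symbols above 1.4, 41.1% by library totals, was 20.4% with TMM, 22.6% with totals without transcripts above 1%, 25.6% with the median of ratios, 36.7% with no filter on reads and 42.8% with at least 100 reads. Depth limited the comparison of transcripts, as 4 of the 15 had fewer than 20 reads. For every transcript, the intervals of its share of the gene's reads in both libraries overlapped, which does not exclude a shift.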

Other observations

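The transcript with the most reads of 9430008C03Rik is an annotated retained intron, and it had a higher log2 ratio (1.35) than the spliced transcripts ENSMUST00000133449 (0.43) and ENSMUST00000141809 (0.99) of the same gene. A comparison over other genes, chosen after seeing the data, gave the background for this order. Of 1300 other genes with both a retained-intron transcript and another transcript with enough reads, the retained intron had the higher ratio in 667 (51.3%), and the median difference was 0.027 on the log2 scale. Over all transcripts with at least 20 reads, the median log2 ratio was 0.43 for 2061 retained introns, 0.40 for 11031 protein-coding transcripts, 0.38 for 1080 processed transcripts, 0.36 for 261 antisense transcripts and 0.073 for 194 lincRNAs. A higher ratio of the retained intron, as in 9430008C03Rik, was therefore about as frequent as a lower one.

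The lincRNA transcript type, to which GENCODE M1 assigns ENSMUST00000133808 of C330006A16Rik, had the lowest median of those 5 types, and 28.9% of its transcripts were above a ratio of 1.4. GENCODE M1 types genes apart from transcripts. It has 9430008C03Rik, Gm14636, B230319C09Rik and 4930520O04Rik as lincRNA genes, with transcripts typed as processed transcript or retained intron. The gene of ENSMUST00000133808 is typed as processed transcript. C330006A16Rik itself had a log2 ratio of 1.50, the value on which it was selected, so its place within this class is no finding. The 76 snoRNAs had a median of 0.93, whereas the SNORA71 copies within 9430008C03Rik were at 0.56 and -0.25.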
